A study of Homo sapiens with 6 samples.

Results

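The SOX transcription factors described here are the products of 10 genes, SOX2, SOX4, SOX5, SOX6, SOX8, SOX9, SOX10, SOX11, SOX12 and SOX13, of 20503 genes that could be named on the array. They were found through the transcript accession of each array probe, and every probe was kept apart, which gave 11 probes: 9 genes had 1 probe and SOX13 had 2. RNA of A673/TR/empty cells (control, 3 cultures) and of A673/TR/LOX-PP cells (also 3) was measured on 6 Agilent 1-colour arrays, 1 array for each culture. A673 is a line of Ewing sarcoma, a tumor of bone and soft tissue driven by the fusion protein EWS/FLI1. All cultures carried the tetracycline repressor (TR), which keeps an inserted cDNA silent until doxycycline is given. The control cells had received the empty lentiviral vector, and the others the vector with LOX-PP, the propeptide that is cut from the proenzyme of lysyl oxidase. Such cells were selected with zeocin as stable clones and high expressers were chosen; which clone went on the arrays is not given in the sources used here, so the construct cannot be told apart from a difference between separately selected cells. The A673/TR/LOX-PP cultures were given doxycycline for 72 h. The labels name it, at 1 µM, for all 6 cultures, but the study's methods name it clearly only for the LOX-PP cells, so whether control cultures received it is unsettled. For inducing such cells the study states 1 µg/ml, a different unit, and it names no dose for the array cultures.

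SOX proteins share a DNA-binding domain, the HMG box, which sits in the minor groove of DNA and bends it, and they usually act together with a partner factor. They are sorted into groups by sequence. SOXB1 proteins (SOX2) keep stem and neural progenitor cells undifferentiated, SOXC proteins (SOX4, SOX11, SOX12) act in neuronal and mesenchymal progenitors, SOXD proteins (SOX5, SOX6, SOX13) have no activation domain of their own and bind DNA as dimers, and SOXE proteins (SOX8, SOX9, SOX10) direct cartilage, gonad, glial and pigment cells. In Ewing sarcoma, SOX2 and SOX6 have been described as genes that EWS/FLI1 activates, and the FLI1 part of the fusion binds DNA at GGAA, often at repeats of it.

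The sequence upstream of the transcription start is shown for 3 SOX genes on which the results below turn: SOX2, which varied least among the arrays, SOX13, whose 2 probes differed, and SOX1, a SOX gene outside the 10 that passed the test. Each line gives the 250 bases before the start, 5′ to 3′ on the strand of the gene, from the RefSeq promoter table (build GRCh38.p14), in which 6 of the 10 genes matched (SOX2, SOX4, SOX12, SOX5, SOX6 and SOX13). The capitals mark GGAA or its reverse complement TTCC. The SOX2 stretch lies at chr3:181711675-181711924, that of SOX13 at chr1:204072865-204073114 and that of SOX1 at chr13:112066899-112067148, all on the plus strand.
SOX2: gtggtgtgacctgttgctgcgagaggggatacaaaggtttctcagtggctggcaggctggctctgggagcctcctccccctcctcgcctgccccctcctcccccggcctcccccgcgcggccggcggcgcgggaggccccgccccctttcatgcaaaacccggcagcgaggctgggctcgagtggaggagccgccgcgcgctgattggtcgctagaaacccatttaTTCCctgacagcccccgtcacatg
SOX13: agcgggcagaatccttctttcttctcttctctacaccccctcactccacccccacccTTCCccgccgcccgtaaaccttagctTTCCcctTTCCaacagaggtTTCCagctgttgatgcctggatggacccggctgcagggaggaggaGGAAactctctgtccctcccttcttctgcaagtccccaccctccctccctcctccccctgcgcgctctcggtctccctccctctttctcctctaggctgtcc
SOX1: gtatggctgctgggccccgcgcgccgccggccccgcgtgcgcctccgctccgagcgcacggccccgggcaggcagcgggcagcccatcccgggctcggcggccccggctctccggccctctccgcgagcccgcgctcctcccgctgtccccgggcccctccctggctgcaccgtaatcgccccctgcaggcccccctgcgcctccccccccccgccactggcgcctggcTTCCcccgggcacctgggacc
SOX2 and SOX1 held GGAA at 1 place each, SOX13 at 5 and SOX4 at 6, while SOX12 had no such match. GGAA on either strand stood in 5 of the 6 matched SOX promoters and in 92.7% of 35116 promoters of the same length. The repeat GGAAGGAA, in which GGAA directly follows itself, was in 0 of the 6 and in 3.06% of all. The SOX-type motif ACAAAG was found only before SOX2 among the 6 (13.7% of all promoters), and ACAATG only before SOX5 (9.29% of all). The GC content was 68.8% for SOX2, 60.8% for SOX13, 48.8% for SOX4, 79.2% for SOX12 and 82.0% for SOX1, against a median of 58% over all promoters. These matches describe the letters in this window.

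The value given for each probe is its log2 signal minus the 75th percentile of the same array, so that 0 is that percentile, and values of different probes are not compared as levels. Between 56.9% and 74.8% of 58717 gene spots per array were well above background, and none was saturated. Replicate 1 of the LOX-PP arrays was on a slide and scan of its own, apart from the other 5 arrays. The probe for LOX itself, meant as a check of the labels, read -0.09, 0.36 and 0.10 on control replicates 1 to 3. On LOX-PP replicates 1 to 3 it read -0.12, -0.69 and -1.29 (adjusted p = 0.218, limma), and thus not higher. Where this probe lies relative to the propeptide cDNA is not known, so it cannot show whether LOX-PP was made. By other assays, the study found RNA of the construct and the secreted propeptide in A673/TR/LOX-PP cells given doxycycline. "LOX-PP arrays" therefore means the arrays so labelled. All 21 probes of the Ewing sarcoma markers were well above background on all 6 arrays, and none passed the test. The log2 of their summed signal ran from 8.33 to 8.47 in controls and from 8.52 to 8.73 with LOX-PP, without overlap. Such sums follow the brightest probes and include the 0.13 by which the median of all tested probes was higher with LOX-PP. With that taken off, the median difference of the 21 probes was 0.052. Of the fibroblast markers, 1 tested probe was higher (FAP) and 3 were lower (COL1A2, POSTN, LUM) of 10. The log2 of the summed signal of that list ran from 6.39 to 6.43 in controls against 5.54 to 6.17 with LOX-PP. The same sum for the epithelial markers was 6.39 to 6.42 and 5.95 to 6.44, with 1 of 8 probes called (CLDN4, higher). Leukocyte markers summed to -0.28 to 0.22 on the control and -0.14 to 0.70 on the LOX-PP arrays, and endothelial markers to -0.86 to -0.30 and -0.41 to 0.15, with 0 of 5 and 0 of 7 probes called. The part of these markers in the SOX results was not tested, and in bulk RNA fewer cells of a type and less RNA per cell cannot be told apart.

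None of the 11 SOX probes passed the test between LOX-PP and control arrays (limma, Benjamini-Hochberg adjusted p under 0.05), while 2 had an unadjusted p under 0.05, SOX8 and 1 of the SOX13 probes. Over all 32647 probes tested, 5.65% passed (3.3% higher with LOX-PP and 2.35% lower). All 11 were tested, since each was well above background on at least 3 arrays, and 10 were so on all 6. The median of all tested probes was itself 0.13 higher on the LOX-PP arrays. Differences are therefore given as LOX-PP minus control on the log2 scale relative to that median, whereas the p-values test the difference before this step. On that scale 5 SOX probes were below 0 and 6 above, with a median of 0.058, and the middle of all probes (25th to 75th percentile) ran from -0.37 to 0.39. The values of both groups did not overlap for 4 of the 11 SOX probes (36.4%), with LOX-PP above control in 3 and below in 1, compared with 29.5% of all tested probes.

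SOX2, the SOXB1 gene that marks pluripotent and neural progenitor cells, was nearly level between the groups. Its probe A_23_P401055 (chromosome 3) read 4.03, 4.12 and 4.002 on the control arrays against 4.37, 4.20 and 4.14 on the LOX-PP arrays. The means were 4.05 ± 0.06 and 4.24 ± 0.12 (SD, n = 3), and although the highest control lay just under the lowest LOX-PP value, the gap was 0.018. Before the median of all probes was taken off, LOX-PP was 0.185 above control. Relative to all probes the difference was 0.058 (95% interval -0.41 to 0.53, adjusted p = 0.639), and the sign of this relative difference turned with the processing. The residual SD of this probe, 0.094, was at the 1.5th percentile of all tested probes, and the interval leaves out a change of 1 log2 unit either way.

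The 3 SOXC genes all lay below the median of all probes on the LOX-PP arrays, by similar amounts, but none passed the test. SOX4, which promotes progenitor survival and is often high in tumors, read 0.42, 0.85 and 0.12 on the control arrays against 0.20, 0.06 and -0.37 on the LOX-PP arrays (probe A_24_P911676, chromosome 6). The groups overlapped, since control replicate 3 lay below LOX-PP replicate 1, and the difference was -0.63 (95% interval -1.29 to 0.035, adjusted p = 0.354). SOX11, which drives neuronal differentiation, read 4.20, 4.42 and 3.81 against 4.002, 3.32 and 3.78 (A_24_P302584, chromosome 2). Its means were 4.14 ± 0.31 and 3.70 ± 0.35 (SD, n = 3), with LOX-PP replicate 1 above control replicate 3, and the difference was -0.57 (-1.23 to 0.086, adjusted p = 0.407). SOX12, the least studied of the group, read -2.07, -2.38 and -2.08 against -3.00, -2.81 and -2.21 (A_24_P156267, chromosome 20). LOX-PP replicate 3 lay among the controls, and the difference was -0.62 (-1.27 to 0.024, adjusted p = 0.347). All 3 differences stayed below 0 under each of the 16 alternatives tried, from -0.87 to -0.37 for SOX4, -0.80 to -0.30 for SOX11 and -0.85 to -0.47 for SOX12, and passed the test under none of them. Relative to probes of like signal, they were less alike, at -0.46 for SOX4, -0.53 for SOX11 and -0.74 for SOX12.

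The 4 SOXD probes lay above the median of all probes, from 0.15 to 1.51, and none passed the test. SOX5, which acts beside SOX9 in cartilage, read -2.94, -2.92 and -3.40 on the control arrays against -2.26, -3.00 and -2.49 on the LOX-PP arrays (A_24_P27234, chromosome 12). LOX-PP replicate 2 lay among the controls, and the difference was 0.38 (95% interval -0.29 to 1.04, adjusted p = 0.349). SOX6, its close relative, read -0.15, 0.13 and -0.36 against 0.41, -0.12 and 0.54 (A_33_P3233916, chromosome 11). Again replicate 2 of the LOX-PP arrays overlapped the controls, and the difference was 0.27 (-0.36 to 0.90, adjusted p = 0.437).

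SOX13, a SOXD gene known for its role in gamma-delta T cells, was read by 2 probes on chromosome 1 that gave different sizes. The first, A_23_P85703, read -1.27, -1.70 and -1.37 on the control arrays against -1.20, -1.09 and -1.22 on the LOX-PP arrays. The groups did not overlap but were only 0.045 apart, and the difference was 0.15 (95% interval -0.36 to 0.66, adjusted p = 0.512). The second, A_33_P3325110, read -2.15, -2.04 and -1.85 against 0.89, -0.84 and -1.19. All 3 LOX-PP arrays lay above the controls, by a gap of 0.66, and LOX-PP replicate 1 lay far above the other two. The difference was 1.51 (0.26 to 2.76), or 2.84-fold, with an adjusted p of 0.136 and an unadjusted p of 0.018. Without LOX-PP replicate 1 it was 0.84 (adjusted p = 0.056). It kept its sign under all 16 alternatives, several of which leave the difference unchanged by construction.

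Within each array the second SOX13 probe minus the first was -0.88, -0.34 and -0.48 on the control arrays against 2.10, 0.26 and 0.03 on the LOX-PP arrays. These contrasts did not overlap, and their group means differed by 1.36. This comparison was not among the planned tests. A two-sided exact permutation test gave p = 0.1, the smallest that 3 against 3 arrays allows. Any contrast without overlap gives that p, so the test adds nothing to the values. Without LOX-PP replicate 1 the LOX-PP mean of this contrast was 0.14 instead of 0.79, against -0.57 in the controls. Which transcripts of SOX13 each probe reads was not determined here.

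SOX8, a SOXE gene of glial, gonadal and muscle precursor cells, had the largest difference of the 11 probes. It read 2.56, 3.09 and 1.79 on the control arrays against 0.24, 1.00 and 1.01 on the LOX-PP arrays (A_23_P66137, chromosome 16). The lowest control was 0.78 above the highest LOX-PP array, and the means were 2.48 ± 0.65 and 0.75 ± 0.44 (SD, n = 3). The difference was -1.86 (95% interval -2.79 to -0.92), or 3.62-fold, and missed the threshold narrowly (adjusted p = 0.0538, unadjusted p = 0.003). It passed with normexp background correction (-1.94, adjusted p = 0.041), among probes well above background on all 6 arrays (-1.80, adjusted p = 0.033) and without control replicate 3, the lowest control (-2.26, adjusted p = 0.037). Over the 16 alternatives it ranged from -2.26 to -1.49, with adjusted p from 0.033 to 0.214.

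SOX9 and SOX10, the other SOXE genes, differed by less than the spread between arrays. SOX9, the master regulator of cartilage, read -1.11, -1.21 and -1.40 on the control arrays against -0.62, -1.37 and -1.63 on the LOX-PP arrays (A_23_P26847, chromosome 17). The LOX-PP values lay on both sides of the controls, and the difference was -0.097 (95% interval -0.82 to 0.63, adjusted p = 0.968). SOX10, the regulator of Schwann cells and melanocytes, was dim, and its probe A_23_P143694 (chromosome 22) was well above background on 1 control and 2 LOX-PP arrays. It read -4.97, -5.55 and -4.34 against -5.76, -2.90 and -5.15, with LOX-PP replicate 2 highest and LOX-PP replicate 1 lowest of all 6. The difference of 0.23 had an interval from -1.52 to 1.97 (adjusted p = 0.825), and the residual SD of 1.15 was at the 96.6th percentile of all tested probes. The interval holds changes of over 1 log2 unit either way, so these values do not settle whether SOX10 changed by that much.

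Of the 11 intervals, 4 lay within 1 log2 unit of 0 (SOX2, SOX6, SOX9 and the first SOX13 probe), and 2 left out 0 (SOX8 and the second SOX13 probe). The residual SD of 7 of the 11 probes was below 0.374, the median of all tested probes.

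Of 9 other SOX genes with 10 probes, 6 probes were tested, and 1 passed (16.7%, against 5.65% of all tested probes). SOX1, the SOXB1 relative of SOX2 in neural progenitors, fell by 2.80 on the log2 scale, or 6.97-fold (95% interval -3.60 to -2.01, adjusted p = 0.0077). Its probe A_23_P434416 read 0.12, 0.34 and -0.52 on the control arrays against -2.42, -2.45 and -3.21 on the LOX-PP arrays, with a gap of 1.90 between the groups. The call was lost in the methods' t-test (adjusted p = 0.064) and without control replicate 1 (adjusted p = 0.057). SOX1 lies on chromosome 13, whose 387 tested probes had a median difference of -0.77. Of those 387 probes 66 were called, a larger share than the 5.65% of all tested probes. The part of the chromosome in the SOX1 result was not tested. SOX17, an endoderm and endothelial factor, differed by 1.04 (adjusted p = 0.212), the 2 probes of SOX30 by 0.25 and 0.51, SOX7 by 0.20 and SOX15 by -0.24, none past the threshold. SOX3, the third SOXB1 gene, and SOX21 were well above background on 1 array of each group and were not tested, and SOX14 and SOX18 were so on none.

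SOX proteins bind DNA with partners such as POU and PAX factors. Of 17 tested probes for such partners 2 were lower, 0 were higher and 15 did not pass (median -0.10). The share called was 11.8%, against 5.65% of all tested probes. SALL4, a zinc finger factor of embryonic stem cells, read 1.96, 1.66 and 1.85 on the control arrays against -0.63, -1.17 and -1.47 on the LOX-PP arrays, and thus fell by 3.04 (adjusted p = 0.0029). TFAP2A, a neural crest factor, fell by 1.62 (adjusted p = 0.0412). TFAP2B, named after its value was seen, had the highest difference of the list, 1.55, and did not pass (adjusted p = 0.0609, limma). POU5F1, the stem cell partner of SOX2, was named after its values were seen and had differences of -0.51 and 0.14 with its 2 probes (adjusted p = 0.762 and 0.570).

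Among cartilage genes that SOX9 activates with SOX5 and SOX6, 3 of 20 tested probes were lower and 0 higher, with a median of 0.27 over the list. The share called was 15%, against 5.65% of all tested probes. COL2A1, the main collagen of cartilage, read -3.07, -3.39 and -3.26 on the control arrays against -5.72, -5.89 and -6.17 on the LOX-PP arrays. It fell by 2.81 (adjusted p = 0.0019) and was well above background on only 1 LOX-PP array. CNMD, which encodes the cartilage protein chondromodulin, fell by 4.55 (adjusted p = 0.0014), was likewise well above background on only 1 LOX-PP array, and lies on chromosome 13, as SOX1 does. MATN3, a matrix protein of cartilage, fell by 1.85 with the probe A_33_P3420466 (adjusted p = 0.0238), which was well above background on 2 LOX-PP arrays. The other 17 probes did not pass, and 8 of the 20 were below the median of all probes. The highest differences of the list, named after their values were seen, belonged to MATN4 and COL11A2. MATN4 differed by 1.503 (adjusted p = 0.0558, limma). The 3 COL11A2 probes differed by 1.38, 1.22 and 1.02 (adjusted p = 0.119, 0.0951 and 0.187, limma).

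Among glial, Schwann cell and melanocyte genes downstream of SOX10, 1 of 21 tested probes was higher and 1 lower, with a median of 0.37. The share called was 9.52%, against 5.65% of all tested probes. PMP22, a myelin protein that many other cells also express, read -1.94, -1.80 and -1.15 on the control arrays against 0.56, 1.35 and 1.66 on the LOX-PP arrays, a rise of 2.69 (adjusted p = 0.0083). List medians are not adjusted for signal. With all tested probes split into 10 groups by signal, the median difference was 0.22 in the dimmest group and -0.25 in the ninth.

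Neural progenitor and neuronal genes regulated by SOX2, SOX4 and SOX11 held the most calls of the 6 lists. Here 6 of 21 tested probes were lower and 1 higher (33.3% called), with a median of -0.26. Of all tested probes 5.65% were called, and 2.35% were called lower. The lists were chosen with earlier results of these data known, so no conclusion on SOX targets is drawn from this share. ELAVL3, a neuronal RNA-binding protein, read -1.80, -1.86 and -1.89 on the control arrays against -5.50, -5.90 and -6.64 on the LOX-PP arrays. It fell by 4.29 (adjusted p = 0.0015) and was well above background on 3 control arrays but 1 LOX-PP array. PROM1, the stem cell surface protein CD133, read -0.19, -0.24 and -1.33 against -7.57, -5.74 and -6.46. With LOX-PP it was well above background on none of the 3 arrays and at least 45.5-fold lower (adjusted p = 0.0023), taking for each LOX-PP array the higher of its own value and the lowest signal well above background. GLI2, a Hedgehog factor, fell by 2.33 with its probe A_23_P209246 (adjusted p = 0.0037), MAP2, a protein of dendrites, fell by 2.87 (adjusted p = 0.0053, well above background on 1 LOX-PP array), and NES, the progenitor filament nestin, fell by 1.81 with 1 probe (adjusted p = 0.0214), while its probe A_33_P3358233 differed by -1.45 and did not pass (adjusted p = 0.128). The 2 remaining calls, named after their values were seen, were STMN2, a protein of growing axons, which rose by 4.11 (adjusted p = 0.0239), and a second GLI2 probe, which fell by 1.38 (adjusted p = 0.0301). The GLI2 probes A_33_P3358457 and A_33_P3358469 differed by -0.16 and -0.055 (adjusted p = 0.956 and 0.955), so that the 4 tested GLI2 probes gave different sizes. TUBB3, the neuronal tubulin, also named after its value was seen, differed by -0.0055 (adjusted p = 0.860).

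Noncoding RNA genes beside SOX genes had 4 tested probes, and none passed. The SOX2-OT transcript, within which SOX2 lies, and the third CASC15 probe are given after their values were seen. SOX2-OT differed by -0.45 (adjusted p = 0.553). CASC15, near SOX4, was read by 3 probes, of which 2 differed by -0.73 each (adjusted p = 0.483 and 0.517). The third, A_19_P00809119, read -4.12, -3.30 and -3.79 on the control arrays against 6.17, -3.81 and -3.97 on the LOX-PP arrays. Its high value stood on LOX-PP replicate 1 alone, the array on which the second SOX13 probe was also highest.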

How the data were processed

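RNA of 3 A673/TR/empty and 3 A673/TR/LOX-PP cultures was hybridised to 1-colour arrays of 1 design. The authors deposited, for each spot, the intensity written by Agilent Feature Extraction (version 10.7 per the labels), already corrected for background, with flags (other values) for spots well above background, saturated or outlying. They also deposited log2 values, which matched the ones computed here within 0.0059 after centring each probe on its median. From the intensity, control and outlier spots were dropped, the spots of each probe were averaged as log2 signal, and each array's 75th percentile was taken off. A probe entered the test when 3 or more of the 6 arrays had it well above background (32647 of 50599). Groups were compared with limma (version 3.58.1, R 4.3.3), with no block, and a probe passed when its Benjamini-Hochberg adjusted p was under 0.05. The median change of all tested probes was subtracted from differences and intervals afterwards. RefSeq names (28174 probes) came from a later assembly (GRCh38.p14) than the array's (hg19), so the array's probes are given no coordinates, and those of the promoters are GRCh38.p14's own. Intervals are 95% intervals of limma, and the number of arrays limits the precision.

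The SOX genes and the lists of related genes were chosen with earlier results of these data known. Named are all probes of the 10 SOX genes, detected probes of other SOX genes, the called probes of each list (at most the 5 with the smallest p) or, with none, the 2 with the smallest p, and LOX as the label check. The lower probe among the SOX10-related genes is counted but not reported here by name. The fitting steps were tested on simulated arrays. Alternatives were quantile normalization, scaling to the median of detected probes, the authors' values, normexp on the median spot signal (offset 50; the mean was not used), no filter or a filter on all 6 arrays, a block for slide or for replicate, the t-test of the study's methods and leaving out each array. A reference of probes with like signal was added after the data were seen. The labels call the arrays of a group replicates. The limma p-values weigh the group difference against the spread between them, moderated over all tested probes. Whether that spread holds any difference between clones is not known.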

Additional observations from a re-analysis of the deposited data

How the results depend on the processing

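Over all probes, 1844 passed the test as reported, and 516 passed with no filter on dim probes, 850 with a replicate block, 566 in the methods' t-test and 407 to 2054 when 1 array was left out, the fewest without control replicate 1 (407) and 2 (443). The replicate block changed no SOX call, with an adjusted p of 0.096 for SOX8 (limma). The study's methods name 3 separate experiments with both kinds of cells, so arrays of the same replicate number may be paired. Deviations from the group means correlated at 0.26, -0.38 and 0.22 between same-numbered arrays. For the other pairs they ran from -0.46 to 0.39, so these values cannot decide whether the arrays were paired. Of the SOX probes 0 passed as reported, 1 (SOX8) with normexp, 1 among probes detected on all 6 arrays, and 0 to 1 when an array was left out, the 1 without control replicate 3. Of the list probes 15 passed as reported, 9 with no filter, 6 in the t-test and 7 to 14 with an array left out, the fewest without control replicates 1 (7) and 2 (8). Without LOX-PP replicate 1, the array of its own slide, 0 SOX probes and 14 list probes passed. The difference of SOX2 (0.058) was -0.021 with normexp, -0.12 with no filter, -0.043 with the slide as a block, and -0.043 to 0.15 with an array left out, and that of the first SOX13 probe (0.15) was -0.029 with no filter. With an array left out, SOX9 ran from -0.43 to 0.12 and SOX10 from -0.55 to 0.77. With no filter, these 2 probes kept their differences before the median was taken off (0.185 for SOX2, 0.275 for the first SOX13 probe). Only the subtracted median changed there. The cause of the other changes was not tested, except that fewer arrays and more dim probes enter the respective fits. Quantile normalization called 908 probes higher and 981 lower, against 1077 and 767 as reported. The median change of all probes was 0.13 as reported, -0.034 after quantile normalization, 0.30 with no filter and 0.20 with normexp, and differences are relative to it. Since slide 2 held 1 array, the slide block equals leaving out that array. Probes near background, SOX10 above all, have the least precise differences.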
